A study of Drosophila melanogaster with 10 samples.

Results

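The genes described here encode the protein components of the mitochondrial ribosome in Drosophila melanogaster. They were chosen by name: every probe set that the platform annotation ties to 1 gene with a symbol starting with mRpL (large subunit) or mRpS (small subunit) was taken, and a gene with several such probe sets was represented by the brightest. This gave 69 genes, 44 of the large and 25 of the small subunit, out of 11982 genes with a one-gene probe set. RefSeq lists 73 genes with such symbols. Of the other 4, mRpS10 and mRpL53 lie in probe sets shared with a further gene (CG34316 and CG33155), and mRpL34 and mRpL37 were not analysed here. The subunit was taken from the symbol, although in mammals the counterparts of mRpS30 and mRpS18A sit in the large subunit.

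Mitochondria keep a small genome of their own, and its messages are translated inside the organelle by a ribosome that is distinct from the cytosolic one. Its RNAs come from the mitochondrial genome, whereas its proteins are all encoded in the nucleus, made in the cytosol and imported. The proteins it makes are core subunits of the respiratory chain and of ATP synthase, so the nuclear genes of the mitochondrial ribosome are needed for oxidative phosphorylation. In Drosophila, mutants of several of these genes, such as tko and bonsai, grow poorly, and mRpL12 has been tied to growth driven by cyclin D.

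Expression was measured on 10 one-colour Affymetrix arrays in 5 groups of 2, to follow the effect of losing Jarid2, a partner of the histone methyltransferase complex PRC2, and of targeting E(z), the catalytic subunit of PRC2. The discs, the larval epithelia that become eye and antenna, were taken from Jarid2 mutants (Jarid2MB00996/TM3, a Minos transposon insertion kept over a balancer chromosome) and from wild-type controls. The larval groups were whole third-instar animals of the same Jarid2 mutant line, animals labelled E(z) RNAi (UAS-E(z)-RNAi, for which the genotype field reads wild type) and wild-type controls. All flies were raised at 25 °C, a larval sample held 20 larvae, and a disc sample came from about 500.0 discs that were dissociated with trypsin and sorted by GFP fluorescence. The driver of the RNAi transgene, the sorted fraction and whether the Jarid2 animals were homozygous were not stated in the labels used here. Nothing in the labels says that replicates came from separate cultures, so p-values measure only how far these samples lie apart, which may be a technical spread. The 2 arrays per group limit the precision, and values are on the deposited log2 scale, on which a difference of 1 is a 2-fold change.

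The Jarid2 probe set read 7.64 and 6.80 in mutant discs, against 10.14 and 10.10 in control discs, and 4.19 and 4.26 in mutant larvae, against 9.63 and 9.48 in control larvae. The E(z) probe set went against its label, with 9.25 and 9.56 in larvae labelled E(z) RNAi and 8.53 and 8.31 in control larvae (difference 0.99 ± 0.16 SE, limma adjusted p = 0.0780), and these samples are therefore called by their label. The tissue labels fitted their markers: 10 of 10 eye-antennal disc markers were higher in control discs than in control larvae, and 10 of 10 measured fat body, glue and muscle markers were lower. Whole-array medians lay between 5.55 and 5.62 in discs and between 7.39 and 7.54 in larvae, while upper quartiles lay between 9.41 and 9.49 on all arrays. Each of the 69 genes lay above the median of its own array on all 10 arrays, so none sat at the low end of the scale.

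**Figure D1:**
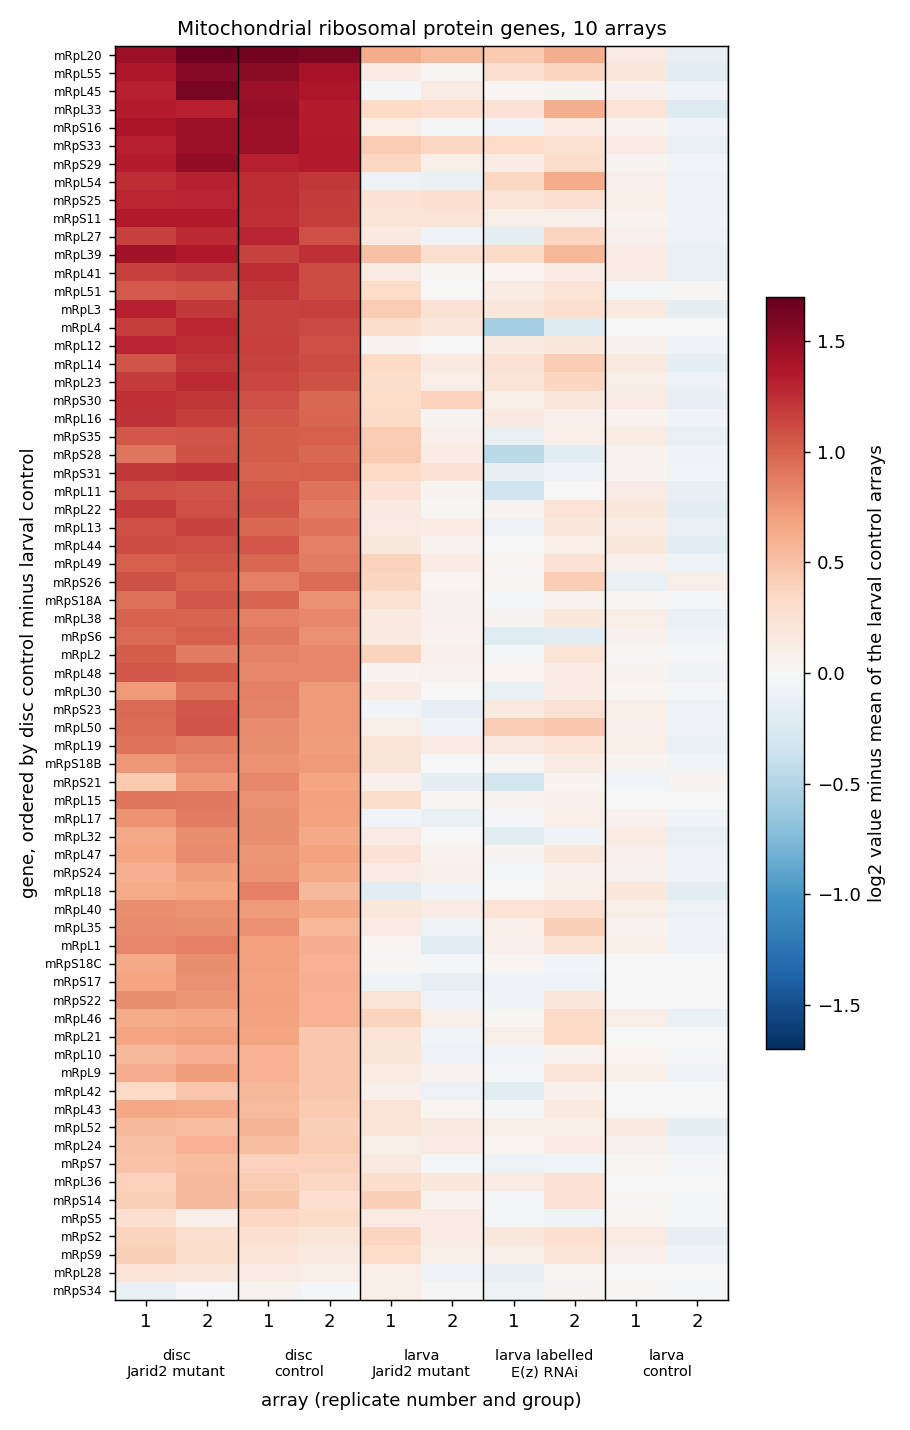
Each row is one of the 69 genes and each column one of the 10 arrays, with the colour giving the log2 value minus that gene's mean over the 2 larval control arrays. The 4 disc columns are red for nearly every gene, with the largest differences at the top (mRpL20, mRpL55, mRpL45), while the 4 other larval columns are pale and mRpS34 and mRpL28 at the bottom show little colour in any column.

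The largest difference in these genes was between the tissues. In control discs 64 of the 69 genes were higher than in control larvae and 0 were lower (limma on all 10 arrays, adjusted p under 0.05 over 18769 probe sets), where 72% of all probe sets were called, 28.4% higher and 43.6% lower. In Jarid2 mutant discs 62 genes were higher than in Jarid2 mutant larvae and 0 lower, where again 72% of all probe sets were called, 29% higher and 43% lower. In both comparisons 62 genes were called. The 2 comparisons share no arrays, but both come from 1 fit of all 10 arrays with the same spread for each gene. They are therefore not independent tests. Control disc arrays lay above control larval arrays without overlap for 68 genes and below for 0, against 35% and 52.8% of all probe sets, and mutant disc arrays above mutant larval arrays for 65 and below for 1, against 35.3% and 51.6%. Differences were above 0 for 69 genes in controls and 68 in mutants, against 40.8% and 41.8% of all probe sets. The median difference of the 69 genes was 0.82 in controls, a ratio of 1.77, against a median of -0.23 over all probe sets, and in the mutants it was 0.83 against -0.20. On single arrays, the median level of the 69 genes was 10.46 and 10.46 in mutant discs and 10.34 and 10.26 in control discs, against 9.70 and 9.60 in mutant larvae, 9.57 and 9.65 in larvae labelled E(z) RNAi and 9.53 and 9.38 in control larvae. In bulk samples, fewer cells of a type and less RNA per cell cannot be told apart. Here whole animals are set against cells sorted from discs, and the sorted fraction is not stated.

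The size of this tissue difference depended on how the arrays were put on one scale. With all arrays brought to one distribution by quantile normalization, the median of the 69 genes was 0.89 in controls with 64 called. With all arrays centred on their medians it was 2.70 with 69 called. Of all 18769 probe sets, 13511 were called as deposited, 14312 after quantile normalization and 17600 after median centring. The share of all called probe sets that were higher in discs was 39.4% as deposited, 68% after quantile normalization and 83.2% after median centring. The median of the 69 genes minus that of all probe sets was 1.05 as deposited and 0.45 after quantile normalization. Centring moves all probe sets of an array alike and so cannot change this value. As deposited, 24 of the 69 genes differed by more than 1 in controls, against 13.2% of all probe sets, and 16 did in the mutants, against 14.1%. The middle of the 69 differences in controls ran from 0.65 at the lower quartile to 1.13 at the upper.

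The 4 largest differences in controls were those of large-subunit genes. mRpL20, whose bacterial counterpart is an early-binding protein of the large subunit, read 10.94 and 10.91 in control discs, against 9.46 and 9.18 in control larvae, the largest of the 69 differences in controls (1.61 ± 0.13 SE, limma adjusted p = 1.78e-05). mRpL55, a protein of animal mitochondrial ribosomes with no bacterial counterpart, read 10.27 and 10.14 in control discs, against 8.93 and 8.54 in control larvae. mRpL45, whose mammalian counterpart lies near the exit of the nascent-chain tunnel at the inner membrane, read 10.08 and 9.99 in control discs, against 8.69 and 8.55 in control larvae. In each of these genes the disc arrays lay more than 1 unit above the larval arrays, with no overlap.

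mRpL45 and mRpL55 also had the largest differences in the mutants, whereas mRpL20 did not. mRpL45 differed by 1.41 ± 0.13 (SE) between mutant discs and mutant larvae and mRpL55 by 1.38 ± 0.15, close to their differences in controls (1.42 ± 0.13 and 1.47 ± 0.15). mRpL20 differed by 0.98 ± 0.13 in mutants, with 10.78 and 10.99 in mutant discs and 9.95 and 9.86 in mutant larvae. Its control disc arrays lay between the 2 mutant disc arrays, and its mutant larval arrays lay above its control larval arrays. mRpL54 differed by 1.38 ± 0.12 in mutants, from levels of 9.65 and 9.69 in mutant discs and 8.31 and 8.27 in mutant larvae, and mRpL33, the counterpart of a small bacterial protein, differed by 1.41 ± 0.18 in controls. Across the 69 genes the tissue differences in controls and mutants had a Pearson correlation of 0.89 (Spearman 0.89), as a description over genes measured on the same arrays; over all probe sets it was 0.95.

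The stalk and core of the large subunit showed the same direction. mRpL12, which forms the flexible stalk that binds translation factors, read 11.28 and 11.22 in control discs, against 10.19 and 10.05 in control larvae (difference 1.13 ± 0.10 SE, limma adjusted p = 2.03e-05). mRpL10, on which the stalk is anchored in bacteria, differed by 0.53 ± 0.13 (limma adjusted p = 0.00576). mRpL3, mRpL4 and mRpL2, counterparts of proteins that reach toward the peptidyl transferase centre and the exit tunnel in bacteria, differed by 1.16 ± 0.14, 1.13 ± 0.13 and 0.82 ± 0.13. The disc arrays lay above the larval arrays for each of these 5 genes. In all, 43 of 44 large-subunit genes were called higher in control discs, against 28.4% of all probe sets, with a median difference of 0.82.

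Among small-subunit genes 21 of 25 were called higher in control discs, against 28.4% of all probe sets. Their median difference was 0.78, but the spread was wide. mRpS16 read 11.57 and 11.42 in control discs, against 10.15 and 10.04 in control larvae (difference 1.40 ± 0.12 SE, limma adjusted p = 1.98e-05), and it differed by 1.38 ± 0.12 in mutants. mRpS29, the counterpart of the mammalian GTP-binding protein DAP3, differed by 1.33 ± 0.12 in controls and mRpS11, a platform protein, by 1.20 ± 0.09. mRpS7, a head protein, differed by 0.39 ± 0.10, and mRpS5, at the messenger entry, by 0.34 ± 0.10, with 11.79 and 11.78 in control discs and 11.48 and 11.42 in control larvae. The call of mRpS5 was lost when the second larval control array was left out (limma adjusted p = 0.0542) and when the first or the second disc control array was (0.0662 and 0.0578).

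Genes that did not pass the test in either genotype were mRpL28, mRpS2, mRpS9, mRpS14 and mRpS34. mRpS34, a component without a bacterial counterpart, read 10.09 and 9.99 in control discs, against 10.04 and 10.00 in control larvae, so that its arrays overlapped (difference 0.02, 95% interval -0.22 to 0.25). mRpL28 read 10.97 and 10.94 in control discs, against 10.83 and 10.84 in control larvae, a small step without overlap (0.12, interval -0.12 to 0.36). mRpS2 differed by 0.23 (interval -0.08 to 0.54), mRpS9 by 0.19 (interval -0.10 to 0.47) and mRpS14 by 0.38 (interval 0.03 to 0.73, limma adjusted p = 0.0525). These intervals lie under the median difference of the 69 genes, 0.82. mRpL36 and mRpS5 passed the test in controls but not in mutants, with differences in mutants of 0.24 ± 0.11 and 0.05 ± 0.10 (SE), and the difference between the genotypes was called for neither gene (limma adjusted p = 0.817 for mRpL36 and 0.472 for mRpS5).

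**Figure D2:**
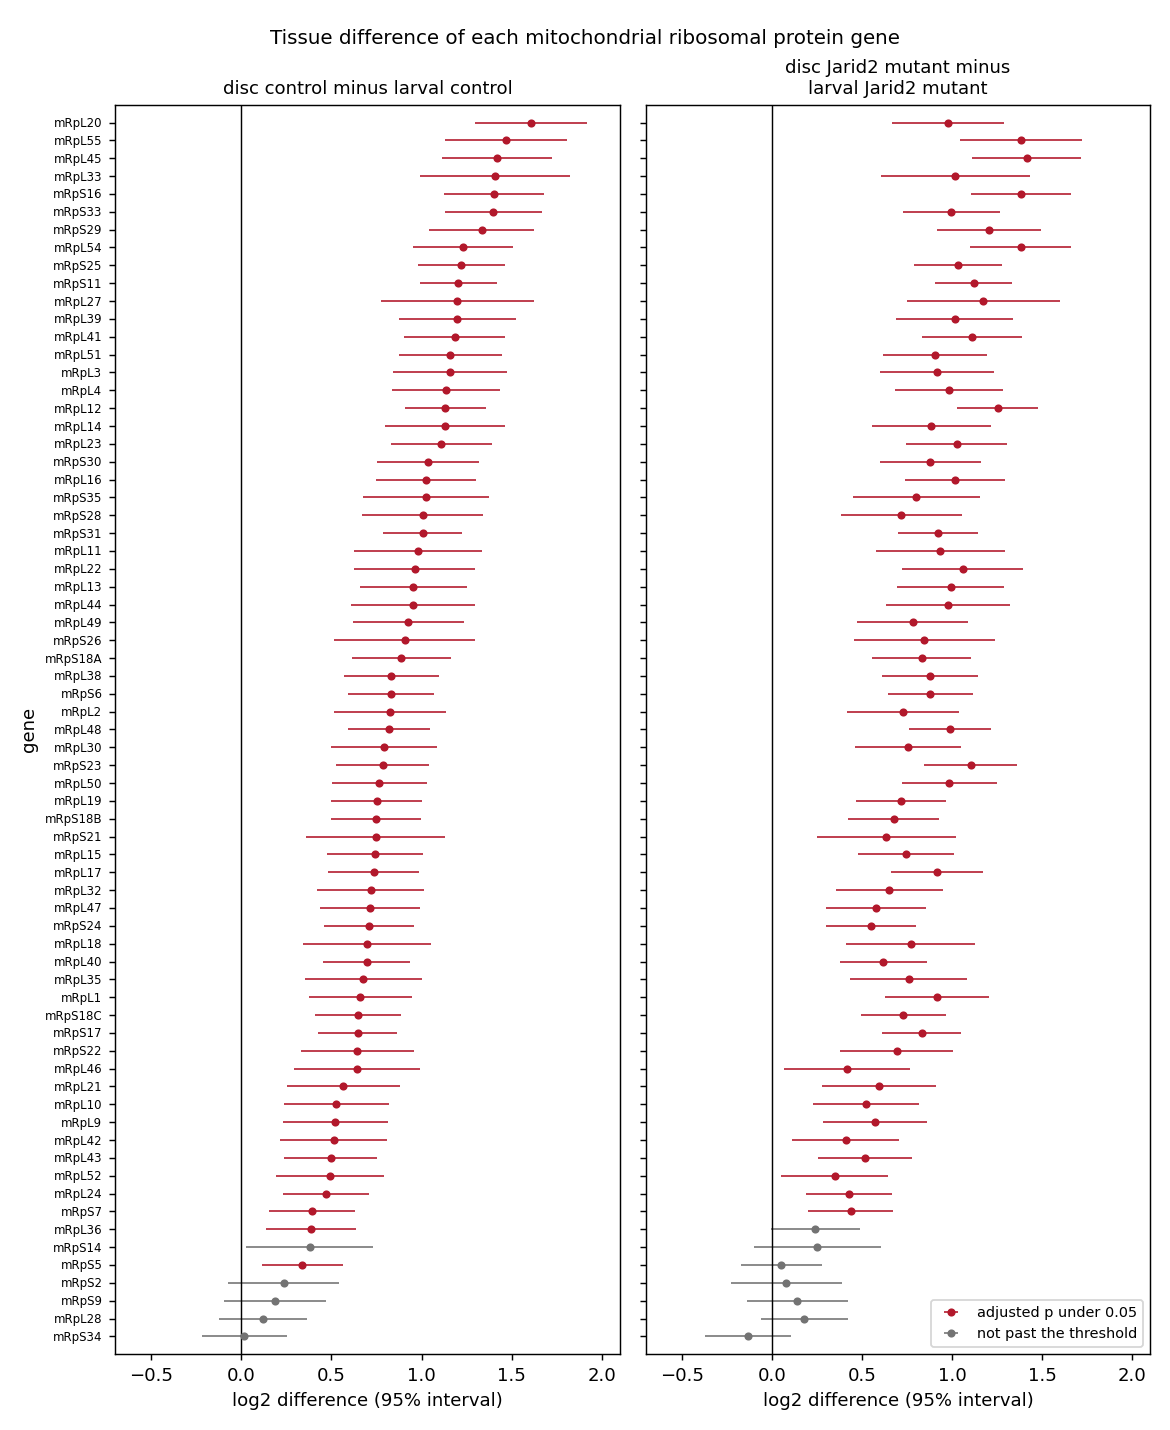
Each row is a gene, in the order of its difference in controls, with the log2 difference of discs minus larvae and its 95% interval for controls (left) and Jarid2 mutants (right). Red points passed an adjusted p of 0.05, 64 on the left and 62 on the right, and the grey points lie at the bottom of the order.

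Second and shared probe sets gave a check on single genes. mRpL47 and mRpS11 each have a second, dimmer probe set, which was higher in control discs by 1.09 and 1.40, against 0.71 and 1.20 for the brighter one. The probe set that mRpS10 shares with CG34316 read 10.74 and 10.71 in control discs, against 9.73 and 9.67 in control larvae. That shared by mRpL53 and CG33155 read 10.87 and 10.72 in control discs, against 11.06 and 10.89 in control larvae. The 2 shared probe sets cannot be assigned to 1 gene.

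Small-subunit genes whose symbols lack the mRp prefix behaved like the members. tko (technical knockout), whose mutants are bang-sensitive, read 11.25 and 11.08 in control discs, against 10.43 and 10.11 in control larvae (0.90 ± 0.13 SE, limma adjusted p = 0.000428). bonsai, named for its small mutants, differed by 1.00 ± 0.12 (limma adjusted p = 0.000106). Of 30 measured genes of the wider mitochondrial translation machinery, tko and bonsai included, 19 were called higher and 2 lower in control discs. Their median was 0.50, and over all probe sets 28.4% were called higher and 43.6% lower. mEFTu1, which delivers aminoacyl-tRNAs, read 10.97 and 10.94 in control discs, against 9.88 and 9.74 in control larvae. The 2 lower genes were the mitochondrial tRNA synthetases TrpRS-m (-1.60 ± 0.35) and CysRS-m (-0.89 ± 0.23).

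Genes for mitochondrial DNA upkeep and transcription were called higher in control discs in 8 of 8 cases, with a median of 0.98. The counts in this paragraph stand against 28.4% of all probe sets called higher and 43.6% called lower. Among the 8 were TFAM (0.90 ± 0.12 SE), which packages mitochondrial DNA, and mtSSB (1.51 ± 0.15), which binds single-stranded mitochondrial DNA. Of 8 growth and mitochondrial regulators 7 were higher, with a median of 1.08, among them CycD (1.76 ± 0.15), a cyclin that promotes growth, and Dref (1.60 ± 0.16), a transcription factor of proliferation genes. Of 55 oxidative phosphorylation subunits 26 were higher and 5 lower, with a median of 0.27. The 5 that were lower are COX7AL2, COX6AL2, ND-51L1, ND-51L2 and ND-B8, of which the first 4 carry paralog symbols. A further 17 genes with such prefixes and a symbol ending in L, a suffix used for paralogs, were kept apart from these 55. Of these, 17 of 17 were lower in control discs, with a median of -4.87 and a range from -7.38 to -0.85. On the 2 control disc arrays 8 and 9 of the 17 lay below the lower quartile of the array, so these sizes are uncertain. Of 36 cytosolic ribosomal protein genes 20 were higher and 6 lower, with a median of 0.25, and of 20 mitochondrial import genes and chaperones 11 were higher and 6 lower, with a median of 0.40. The median of the 69 genes, 0.82, lay below those of the mitochondrial DNA list and the regulators and above those of the wider translation genes, the oxidative phosphorylation subunits, the cytosolic ribosomal proteins and the import genes, and these differences between lists were not tested.

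Markers of other cell types and cell cycle genes also differed between the tissues. Over all probe sets 28.4% were called higher in control discs and 43.6% lower. All 12 measured cell cycle genes were higher in control discs, with a median of 1.91, and so were 9 of 10 haemocyte markers, with a median of 1.55. Of 16 measured male germline markers 15 were lower, with a median of -3.47, and their summed linear signal was 629 to 651 in control discs, against 15419 to 33571 in control larvae. On the control disc arrays 9 and 10 of the 16 lay below the lower quartile of the array, so the size of this median is uncertain. Between the mutants the 10 haemocyte markers ran the other way, with a summed linear signal of 690 to 842 in mutant discs, against 10617 to 13089 in mutant larvae. The part of these cell types in either tissue comparison was not tested.

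In Jarid2 mutant larvae 0 of the 69 genes passed the test against control larvae, where 0.821% of all probe sets were called (limma on the 6 larval arrays). The lowest adjusted p among the 69 was 0.256, and 2 genes had an unadjusted p under 0.05, against 8.74% of all probe sets. The 69 differences ran from -0.12 to 0.58 with a median of 0.13, against 0.01 over all probe sets, and 60 were above 0, against 52.5% of all probe sets. The 95% interval lay inside a 2-fold change either way for 69 of 69 genes, against 83.4% of all probe sets. The mutant arrays lay above the control arrays without overlap for 28 genes and below for 1, against 21.2% and 14.6% of all probe sets.

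mRpL20 had the largest value, with 9.95 and 9.86 in Jarid2 mutant larvae, against 9.46 and 9.18 in control larvae (0.58 ± 0.15 SE, limma adjusted p = 0.256). mRpS33 read 8.84 and 8.77 in mutant larvae, against 8.54 and 8.29 in control larvae (0.39 ± 0.14, limma adjusted p = 0.456). Both genes were picked among those whose arrays did not overlap, and in both the 2 control arrays lay further apart than the mutant arrays. mRpL39 differed by 0.38 ± 0.17 and mRpS30 by 0.35 ± 0.14. mRpS17 was the gene with both mutant arrays lower, at 8.99 and 8.92 in mutant larvae, against 9.05 and 9.07 in control larvae (-0.11 ± 0.11).

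In larvae labelled E(z) RNAi 0 of the 69 genes passed the test against the same control larvae, where 0.9% of all probe sets were called. The lowest adjusted p was 0.206, and 5 genes had an unadjusted p under 0.05, against 15.6% of all probe sets. The median difference was 0.11, against 0.06 over all probe sets, and 53 genes were above 0, against 58.8%. Arrays did not overlap for 25 genes higher and 6 lower, against 32% and 14.6% of all probe sets, and the 95% interval lay inside a 2-fold change for 69 of 69 genes, against 80.8%. The large subunit had a median difference of 0.12 with 38 of 44 genes above 0, and the small subunit one of 0.03 with 15 of 25, a difference between subunits that was not tested. In Jarid2 mutant larvae the medians were 0.12 for the large and 0.16 for the small subunit.

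Single genes went both ways in the larvae labelled E(z) RNAi. mRpL20 read 9.77 and 9.94 there (0.53 ± 0.15 SE against control larvae), and mRpL54 read 8.74 and 9.02, against 8.47 and 8.31 in control larvae (0.49 ± 0.15). mRpL39 differed by 0.45 ± 0.17, and mRpL50 read 9.07 and 9.12, against 8.75 and 8.57 in control larvae (0.44 ± 0.13). mRpL4 read 9.13 and 9.48 in larvae labelled E(z) RNAi, against 9.70 and 9.69 in control larvae (-0.39 ± 0.15, limma adjusted p = 0.313), the lowest of the 69 differences. mRpS28 differed by -0.32 ± 0.17, mRpS6 by -0.20 ± 0.12 and mRpS31 by -0.10 ± 0.12. None of these passed the test, and both larval comparisons use the same control arrays.

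Set directly against each other, Jarid2 mutant larvae and larvae labelled E(z) RNAi differed in 0 of the 69 genes, where 1.34% of all probe sets were called, and 6 genes had an unadjusted p under 0.05, against 16.8%. The median was 0.04 with 44 genes above 0, against 46.1% of all probe sets, arrays did not overlap for 14 genes higher and 9 lower, against 19.5% and 29.1%, and the 95% interval lay inside a 2-fold change for 67 genes, against 80.5%. mRpL4 read 10.00 and 9.89 in Jarid2 mutant larvae, above both arrays labelled E(z) RNAi (0.64 ± 0.15 SE, limma adjusted p = 0.129). mRpS28 differed in the same direction (0.61 ± 0.17), with 10.09 and 9.78 in Jarid2 mutant larvae and 9.20 and 9.46 in larvae labelled E(z) RNAi, as did mRpS31 (0.39 ± 0.12) and mRpL11 (0.32 ± 0.18). mRpL54 differed the other way (-0.59 ± 0.15, limma adjusted p = 0.136), as did mRpL50 (-0.41 ± 0.13), mRpS23 (-0.31 ± 0.13) and mRpL55 (-0.25 ± 0.16). In a fit of all 10 arrays 2 genes passed the threshold, mRpL4 (limma adjusted p = 0.0301) and mRpL54 (0.0314), and that fit called 1146 probe sets, against 252 with the larval arrays.

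In Jarid2 mutant discs 0 of the 69 genes passed the test against control discs, where 2.28% of all probe sets were called (limma on the 4 disc arrays). The differences ran from -0.16 to 0.24, with a median of 0.09, against 0.06 over all probe sets, and 56 genes were above 0, against 64.8%. Arrays did not overlap for 37 genes higher and 4 lower, against 37.1% and 15.4% of all probe sets. The lowest adjusted p was 0.211, and 3 genes had an unadjusted p under 0.05, against 21.2% of all probe sets. The 95% interval lay inside a 2-fold change for 69 of 69 genes, against 94.2%, and the median spread of replicates was smaller in discs, with a residual SD of 0.07 for the 69 genes, than in larvae, with 0.13.

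The largest values in mutant discs were those of mRpL50, at 9.61 and 9.72, against 9.47 and 9.38 in control discs (0.24 ± 0.09 SE, limma adjusted p = 0.222), mRpS23 (0.23 ± 0.09), mRpL48 (0.22 ± 0.08) and mRpS31 (0.21 ± 0.08). mRpL48 read 10.08 and 10.05 in mutant discs, against 9.85 and 9.84 in control discs. Among genes with both mutant arrays lower, the largest differences were those of mRpS5 (-0.15 ± 0.09), mRpL42 (-0.11 ± 0.09), mRpL51 (-0.10 ± 0.09) and mRpL33 (-0.08 ± 0.09). These 8 genes were picked among those whose arrays did not overlap, so the lack of overlap is not a result about them. Of all probe sets 37.1% lay higher and 15.4% lower without overlap. The sizes of the 8 differences ran from 0.08 to 0.24 on the log2 scale.

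Beside this, 10 of 10 haemocyte markers were lower in mutant discs, with a summed linear signal of 690 to 842, against 22776 to 51050 in control discs. The 69 genes were measured in the same RNA, and the part of the haemocytes in their differences was not tested. The counts for mutant discs in this paragraph stand against 2.28% of all 18769 probe sets called, 100 higher and 328 lower. A single call in a list of 10 to 30 genes is therefore not read as a result of that list. The cell cycle genes had a median difference of 0.34 with 0 of 12 called, and the eye-antennal disc markers one of 0.45 with 1 of 10 called. Of the wider mitochondrial translation genes 1 of 30 was called, ValRS-m, a mitochondrial valyl-tRNA synthetase, with 9.00 and 9.11 in mutant discs, against 8.24 and 8.22 in control discs (0.82 ± 0.08 SE, limma adjusted p = 0.0209). Of the import genes 1 of 20 was called, Tim17a1, a translocase subunit of the inner membrane, with 4.13 and 4.02 in mutant discs, against 5.50 and 5.28 in control discs (lower, limma adjusted p = 0.0105). Both mutant readings of Tim17a1 lay below the lower quartile of their array (4.21 and 4.27), so no size is given for its difference. No oxidative phosphorylation subunit, cytosolic ribosomal protein gene or gene of mitochondrial DNA upkeep passed the test in any of the 3 comparisons with controls. Of all probe sets, 0.821% were called for Jarid2 in larvae, 0.9% for labelled E(z) RNAi and 2.28% for Jarid2 in discs.

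**Figure D3:**
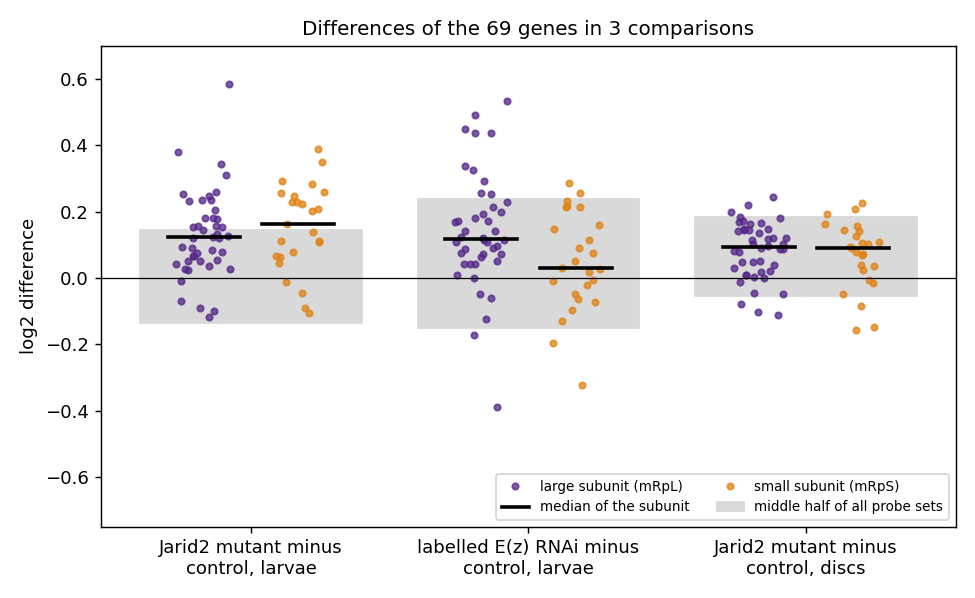
Each point is the log2 difference of one gene in Jarid2 mutant larvae, in larvae labelled E(z) RNAi and in Jarid2 mutant discs, each against its own controls, with large-subunit genes in purple, small-subunit genes in orange, black bars for the subunit medians and grey boxes from the lower to the upper quartile of all probe sets. Most points lie inside the grey boxes or just above them, and disc differences stay within -0.16 and 0.24.

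The effect of the Jarid2 mutation was also compared between the tissues, as the disc difference minus the larval difference. The loss of Jarid2 signal itself was unequal, at -5.33 in larvae and -2.90 in discs (difference 2.43 ± 0.34 SE, limma adjusted p = 0.00857). The part of this inequality in the values below was not tested. Of the 69 genes 0 passed the test, where 2.89% of all probe sets were called (limma on all 10 arrays), and 2 had an unadjusted p under 0.05, against 12.4%. The median was -0.06, against 0.06 over all probe sets, with 23 genes above 0, against 59%. mRpL20 had the lowest value (-0.63 ± 0.19 SE, limma adjusted p = 0.176), from a difference of -0.05 ± 0.10 in discs and 0.58 ± 0.15 in larvae. It was followed by mRpS33 (-0.40 ± 0.16), mRpL33 (-0.39 ± 0.25) and mRpS28 (-0.29 ± 0.20), while mRpS23 (0.32 ± 0.16), mRpL1 (0.25 ± 0.18), mRpL50 (0.22 ± 0.16) and mRpS17 (0.18 ± 0.13) lay at the other end.

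Array by array, most of the 69 genes shifted together between replicates of one group. This was weaker in Jarid2 mutant discs, where 24 of the 69 genes went against the other 45. Replicate 2 was above replicate 1 for 45 of 69 genes in Jarid2 mutant discs, against 55.8% of all probe sets, and below it for 64 of 69 in control discs, against 54.7%. In larvae it was below for 61 of 69 genes in Jarid2 mutants, against 57.1%, above for 62 of 69 in animals labelled E(z) RNAi, against 61.2%, and below for 62 of 69 in controls, against 60.2%. The median of these steps was -0.14 in Jarid2 mutant larvae, 0.13 in larvae labelled E(z) RNAi and -0.14 in control larvae, which is as large as the median difference between Jarid2 mutant and control larvae, 0.13. In discs it was 0.04 in mutants and -0.09 in controls.

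Pairs of single arrays show how far these shifts reach. The first Jarid2 mutant larval array against the second control larval array gave a median difference of 0.28 with 68 of 69 genes higher, and the second mutant array against the first control array gave -0.01 with 32 higher. Without the first mutant array the median of the larval Jarid2 comparison was 0.06, and without the second it was 0.21. In larvae labelled E(z) RNAi the medians of the pairs ran from -0.04 to 0.26, and in Jarid2 mutant discs from 0.02 to 0.16. The pairs of control disc and control larval arrays gave medians from 0.69 to 0.91 with 68 or 69 genes higher, so the tissue difference was larger than the shifts between replicates.

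Other lists did not all move in the same way between replicates. In Jarid2 mutant larvae 51 of 55 oxidative phosphorylation subunits were lower in replicate 2, and in larvae labelled E(z) RNAi 48 of 55 were higher, but in control larvae 28 of 55 were lower, with a median step of 0.00. The cytosolic ribosomal protein genes had steps with a median size under 0.05 in all 5 groups, but most of them lay near the top of the scale, where steps may be compressed. Male germline markers deviated from their larval mean by a median of 0.00 and -0.26 in Jarid2 mutant larvae, 0.25 and -0.43 in larvae labelled E(z) RNAi and -0.28 and 0.73 in control larvae. The array with the highest germline value, the second larval control, is also the one with the lowest median deviation of the 69 genes (-0.14). Of the 2 arrays of a group, the one with more germline signal was the higher one for the 69 genes in Jarid2 mutant larvae, and the lower one in larvae labelled E(z) RNAi and in control larvae. The part of the germline in these shifts was not tested. Haemocyte markers summed to 13089 and 10617 on the linear scale in Jarid2 mutant larvae, 9986 and 17310 in larvae labelled E(z) RNAi and 9497 and 11349 in control larvae, and their part was not tested either.

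**Figure D4:**
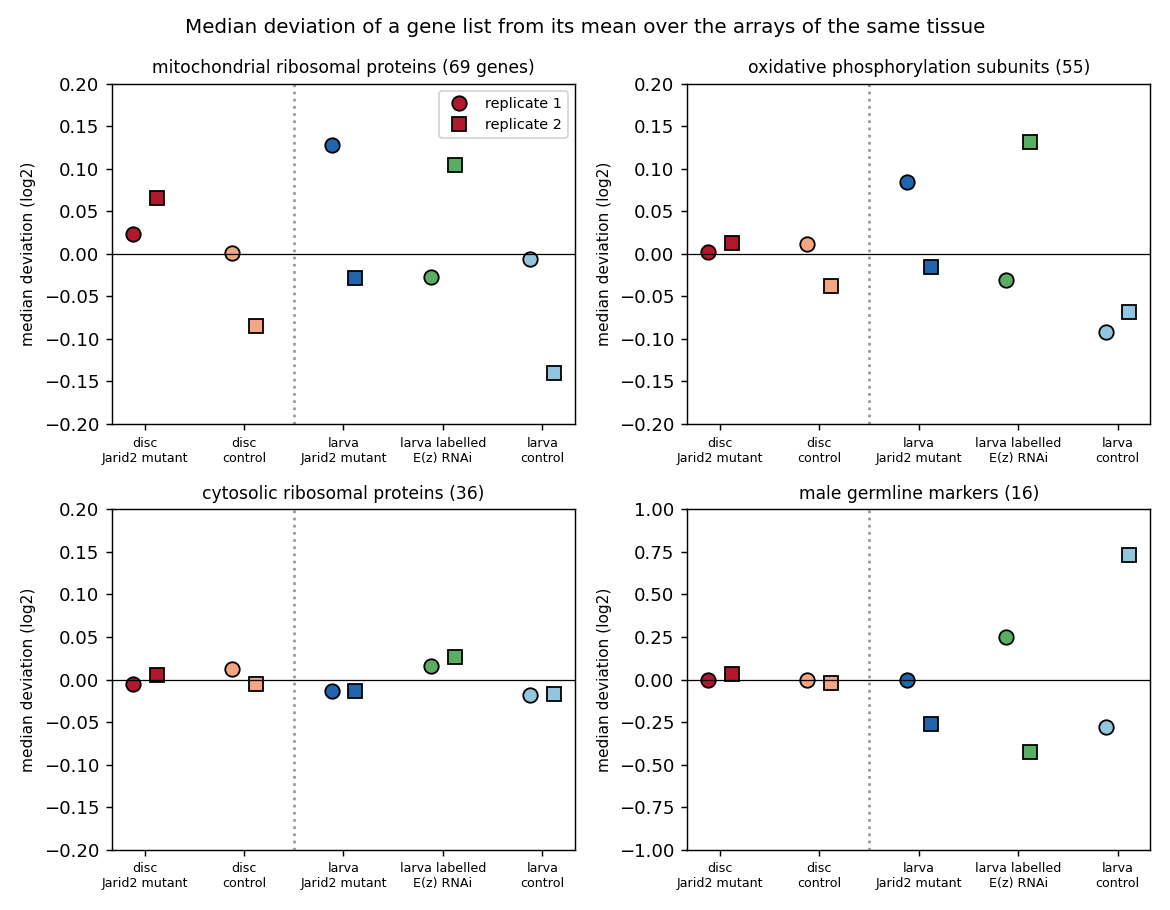
Each point is one array and gives the median deviation, on the log2 scale, of a gene list from its mean over all arrays of the same tissue, with replicate 1 as a circle and replicate 2 as a square and one colour per group. The mitochondrial ribosomal protein genes range from -0.14 to 0.13 in larvae and from -0.08 to 0.07 in discs, and the axis of the male germline panel is wider than the others.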

How the data were processed

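The authors deposited one log2 value per probe set and array. Per the submitters' processing notes limma 3.4.3 was among the tools, while how background, scaling and probe set summary were handled is not given here. The table held 18952 probe sets, of which 183 array controls were left out. By the platform annotation, 13647 probe sets have a single gene, 402 have several and 4720 have none, and 13544 of the 13647 matched the RefSeq gene table.

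Group means were fitted with lmFit and eBayes of limma 3.58.1 (R 4.3.3): larval comparisons on the 6 larval arrays, discs on the 4 disc arrays, comparisons across tissues on all 10, with 3, 2 and 5 residual degrees of freedom. Tests were two-sided, with Benjamini-Hochberg adjustment over 18769 probe sets, and were called under 0.05. Standard errors are from these fits. The genes, gene lists and tests were chosen with earlier results of these data known, and the tissue comparison in mutants was added after seeing the data. The replicate block with the control numbers exchanged was not planned in advance either.

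Genes were named by rule. Where over 10 of the 69 were called, the 5 largest rises and falls were named. Otherwise the 4 largest each way among genes without overlapping arrays were named, or, for the difference between tissues in the Jarid2 effect, the 4 largest each way. To these were added mRpL12, mRpL10, mRpL4, mRpL3, mRpL2, mRpS2, mRpS5, mRpS7, mRpS11, mRpS29, tko and bonsai. Genes that missed the test between tissues, and genes of other lists, were named after their values were seen. No sequences or promoter motifs were analysed here. Alternatives were other scalings, fits, weights, probe set summaries, replicate blocks and left-out arrays. Figures were drawn with matplotlib 3.10.9.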

Additional observations from a re-analysis of the deposited data

How the results depend on the processing

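Among the 69 genes, 0 were called for Jarid2 in larvae, labelled E(z) RNAi, Jarid2 in discs and the difference between tissues in the Jarid2 effect under each alternative run. The direct larval comparison called 2 in the fit of all 10 arrays and 0 otherwise. Among alternatives that kept all arrays, the tissue comparison called 64 to 69 genes in controls and 61 to 69 in mutants. All these calls were higher in discs, except 1 lower in mutants after quantile normalization of all arrays. The upper ends came from median centring, which called 17600 of 18769 probe sets in controls and 17569 in mutants.

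Quantile normalization of all arrays gave a median of 0.89 for the tissue difference in controls and -0.13 for the Jarid2 effect between tissues; within each tissue it gave 0.054 for Jarid2 in discs. Median centring gave 2.70 and 2.76 for the tissue difference in controls and mutants, and 0.15 for Jarid2 in discs. With 1 array left out at a time, medians ran from 0.061 to 0.21 for Jarid2 in larvae, 0.033 to 0.18 for labelled E(z) RNAi, 0.038 to 0.12 for Jarid2 in discs, -0.055 to 0.13 for the direct comparison, -0.14 to 0.020 for the Jarid2 effect between tissues and 0.75 to 0.92 for the tissue difference in mutants; the lone array left in a group was assumed to vary like the other groups. Single genes near 0 changed sign there: for Jarid2 in larvae mRpL12 (-0.042 to 0.093), mRpL10 (-0.099 to 0.20) and mRpS7 (-0.034 to 0.16), for labelled E(z) RNAi mRpL10 (-0.046 to 0.064) and mRpL2 (-0.016 to 0.23), and for Jarid2 in discs mRpL10 (-0.021 to 0.12) and tko (-0.048 to 0.13). The cause was not tested.

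Replicate deviations correlated over all probe sets at -0.42 between Jarid2 and control larvae, -0.21 between labelled E(z) RNAi and control larvae and 0.09 between the disc groups. With 2 arrays per group, these values cannot show whether samples were paired, in the numbered or in the exchanged order. With the replicate number as a block, 0, 0, 0 and 64 of the 69 genes were called for Jarid2 in larvae, labelled E(z) RNAi, Jarid2 in discs and the tissues in controls, and 61 for the tissues in mutants. Over all probe sets that block called 65 for Jarid2 in larvae, against 154 without it, 37 for labelled E(z) RNAi, against 169, and 45 in the direct comparison, against 252. With the control numbers exchanged it called 242 and 254 in the first 2. The fit of all 10 arrays called 451, 769 and 1146 probe sets in these 3 larval comparisons. Quantile normalization of all arrays called 90, 75 and 139 there, and 223 for Jarid2 in discs, against 428. Median centring called 232 for Jarid2 in larvae. Array weights called 426 in the direct comparison, and the robust prior with trend 795 for Jarid2 in discs. Averaging a gene's probe sets called 95, 80 and 124 in the 3 larval comparisons, over fewer features. Of called probe sets in discs 23.4% were higher in Jarid2 mutants as deposited, 9.42% after quantile normalization of all arrays, 33.6% within tissue and 35.3% after centring. With 2 arrays per group, the larval fits can miss small differences.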
